A study of Mus musculus with 12 samples.

Results

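The genes described here were 10 marker and Wnt target genes of the intestinal crypt, and 9 of them, Lgr5, Olfm4, Smoc2, Axin2, Rnf43, Sox9, Ephb2, Bmi1 and Lrig1, were found by gene symbol among the 15855 genes of the table. Ascl2, a transcription factor of crypt base stem cells, had no row in the table and was not analysed here. RNA was sequenced from live EpCAM+ epithelial cells sorted from the whole small intestine of male C57BL/6J mice, aged 8 to 12 weeks by the study's methods, 24 h after surgery. The 7 sham-operated mice had the operation without the occlusion, and the 5 pMCAO mice had a permanent occlusion of the middle cerebral artery, a model of ischaemic stroke without reperfusion. The labels name no transgene, and the labels number each library as a separate biological replicate.

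Crypts are pockets at the base of the villi where stem cells divide and supply the gut lining. Wnt ligands bind Frizzled and LRP receptors on these cells, which stops the destruction complex from removing β-catenin and lets β-catenin act with TCF factors on target genes. R-spondins bind LGR receptors and protect the Wnt receptors from removal by the ubiquitin ligases RNF43 and ZNRF3. Several target genes feed back on the pathway, and others mark the stem cells themselves or place cells along the crypt axis.

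The libraries were read in 4 sets of consecutive library numbers. Their boundaries had been found earlier by matching the authors' deposited fit, since the numbers alone do not mark them. Set 1 held pMCAO replicate 1 and sham replicates 1 to 3, set 2 held pMCAO replicates 2 and 3 and sham replicates 4 and 5, set 3 held pMCAO replicates 4 and 5 and sham replicate 6, and set 4 held sham replicate 7 alone. What a set stood for was not given in the sources used here. The set 1 libraries stood apart: 13967 ± 628 genes were detected (SD, n = 4) against 15540 ± 166 (SD, n = 8) in the later sets, a difference at the smallest p these samples allow (two-sided exact permutation test, p = 0.00202). Mitochondrial rRNA took 43.9% ± 9.57 of the counts in set 1 and 24.4% ± 7.98 in the later sets (SD, n = 4 and 8; exact permutation test, p = 0.00404). Total counts ranged from 7418730 to 31925579 and did not differ past the threshold between sets (exact permutation test, p = 0.135). The sets were chosen with earlier results of these data known, so these p-values are a description. The sorted cells carried their label's markers: all 7 genes of the epithelial identity list were in the table, summing to between 3569 and 7558 CPM (the reads of a gene as a share of its library, scaled to a fixed total), whereas 1 of 10 stromal and 2 of 5 endothelial markers had a row. All 10 of 10 immune markers had one, summing to between 53.0 and 631 CPM.

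Primer pairs for quantitative PCR of Lgr5, Olfm4, Ephb2 and Bmi1 were listed among the study's materials, and are shown because they fix which transcripts were meant. Each pair was found whole on GENCODE M21 transcripts of its own gene and of no other.
Lgr5 forward: ccttggccctgaacaaaata
Lgr5 reverse: atttctttcccagggagtgg
Olfm4 forward: aacatcaccccaggctacag
Olfm4 reverse: tgtccacagacccagtgaa
Ephb2 forward: agaatggtgccatcttccag
Ephb2 reverse: gcacatccacttcttcagca
Bmi1 forward: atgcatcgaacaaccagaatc
Bmi1 reverse: gtctggttttgtgaacctgga
The product was 111 bases long on 4 transcripts of Lgr5, 107 on 2 of Olfm4, 102 on 4 of Ephb2 and 193 on 7 of Bmi1.

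By the GENCODE M21 annotation of GRCm38, Lgr5 lay on chr10:115450311-115587780 (minus strand), Olfm4 on chr14:79984081-80023139 (plus), Smoc2 on chr17:14279506-14404790 (plus), Ephb2 on chr4:136647539-136835988 (minus), Bmi1 on chr2:18677018-18686629 (plus) and Lrig1 on chr6:94604529-94700158 (minus). Chromosome 11 held Rnf43 at chr11:87662722-87735539, Axin2 at chr11:108920349-108950783 and Sox9 at chr11:112782224-112787760, all on the plus strand. All are protein-coding genes, and counts were made over whole genes. Exons of Olfm4 shared 153 bases (5.17% of its exonic length) with the lincRNA Gm6999 on the same strand. Opposite-strand overlaps covered 209 bases of Axin2 (3.8%, with Gm11670) and 144 bases of Lrig1 (2.58%, with Slc25a26). The strand setting of the counting was not stated, so reads in these stretches are uncertain.

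RefSeq promoter windows on GRCm38.p6, from 250 bases before to 50 bases after the start, were found for 7 of the 10 genes, with 2 windows for Rnf43. They are shown for Axin2, which was not lower in library set 1, and for Lrig1, Ephb2 and Olfm4, which were lower in every set 1 library. Capitals mark CpG dinucleotides.
Axin2, chr11:108920099-108920398, plus strand: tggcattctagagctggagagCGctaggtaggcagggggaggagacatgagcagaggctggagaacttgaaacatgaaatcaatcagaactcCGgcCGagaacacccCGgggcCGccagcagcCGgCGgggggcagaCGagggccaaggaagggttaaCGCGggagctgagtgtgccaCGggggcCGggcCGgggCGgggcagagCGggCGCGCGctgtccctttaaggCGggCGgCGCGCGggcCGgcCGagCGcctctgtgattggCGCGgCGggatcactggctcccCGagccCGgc
Lrig1, chr6:94700096-94700395, minus strand: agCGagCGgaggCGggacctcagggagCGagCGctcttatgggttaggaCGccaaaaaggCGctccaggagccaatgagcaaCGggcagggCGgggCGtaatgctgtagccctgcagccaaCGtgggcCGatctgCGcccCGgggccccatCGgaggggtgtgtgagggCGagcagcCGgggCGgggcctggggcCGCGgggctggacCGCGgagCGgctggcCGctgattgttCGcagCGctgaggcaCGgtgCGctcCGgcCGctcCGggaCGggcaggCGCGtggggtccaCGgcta
Ephb2, chr4:136835963-136836262, minus strand: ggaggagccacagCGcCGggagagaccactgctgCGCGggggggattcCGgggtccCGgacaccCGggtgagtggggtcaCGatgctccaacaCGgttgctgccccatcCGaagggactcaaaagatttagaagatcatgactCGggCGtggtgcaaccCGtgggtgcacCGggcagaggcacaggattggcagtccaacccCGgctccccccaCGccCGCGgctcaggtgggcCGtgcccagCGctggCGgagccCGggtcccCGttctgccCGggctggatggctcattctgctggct
Olfm4, chr14:80000052-80000351, plus strand: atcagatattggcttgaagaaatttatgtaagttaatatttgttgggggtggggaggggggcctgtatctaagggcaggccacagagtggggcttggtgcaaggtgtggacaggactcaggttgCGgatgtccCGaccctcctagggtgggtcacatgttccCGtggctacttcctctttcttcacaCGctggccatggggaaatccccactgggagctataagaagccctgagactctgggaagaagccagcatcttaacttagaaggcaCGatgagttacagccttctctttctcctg
The Axin2, Lrig1 and Ephb2 windows held 31, 35 and 24 CpG dinucleotides, and the Olfm4 window held 5, against a median of 7 over 32851 RefSeq windows. The letters CTTTGA, the core of the TCF binding motif, were searched on both strands. They stood in 0 of the 8 windows of these genes and in 16% of all windows. Lgr5, Smoc2 and Sox9 had no entry.

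All levels below are CPM scaled by TMM factors, which adjust each library for its composition. In the 8 later libraries the genes ranked, by median CPM per kilobase of exon, Rnf43 (3.02), Olfm4 (2.95), Sox9 (2.31), Bmi1 (1.81), Axin2 (1.53), Lrig1 (0.706), Ephb2 (0.340), Smoc2 (0.283) and Lgr5 (0.238). Neighbours in this order had overlapping ranges except Lrig1 and Ephb2, where Lrig1 was higher per kilobase in 8 of 8 libraries. The order of the stem cell markers Lgr5 and Smoc2 was therefore not resolved by their spread.

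**Figure D1:**
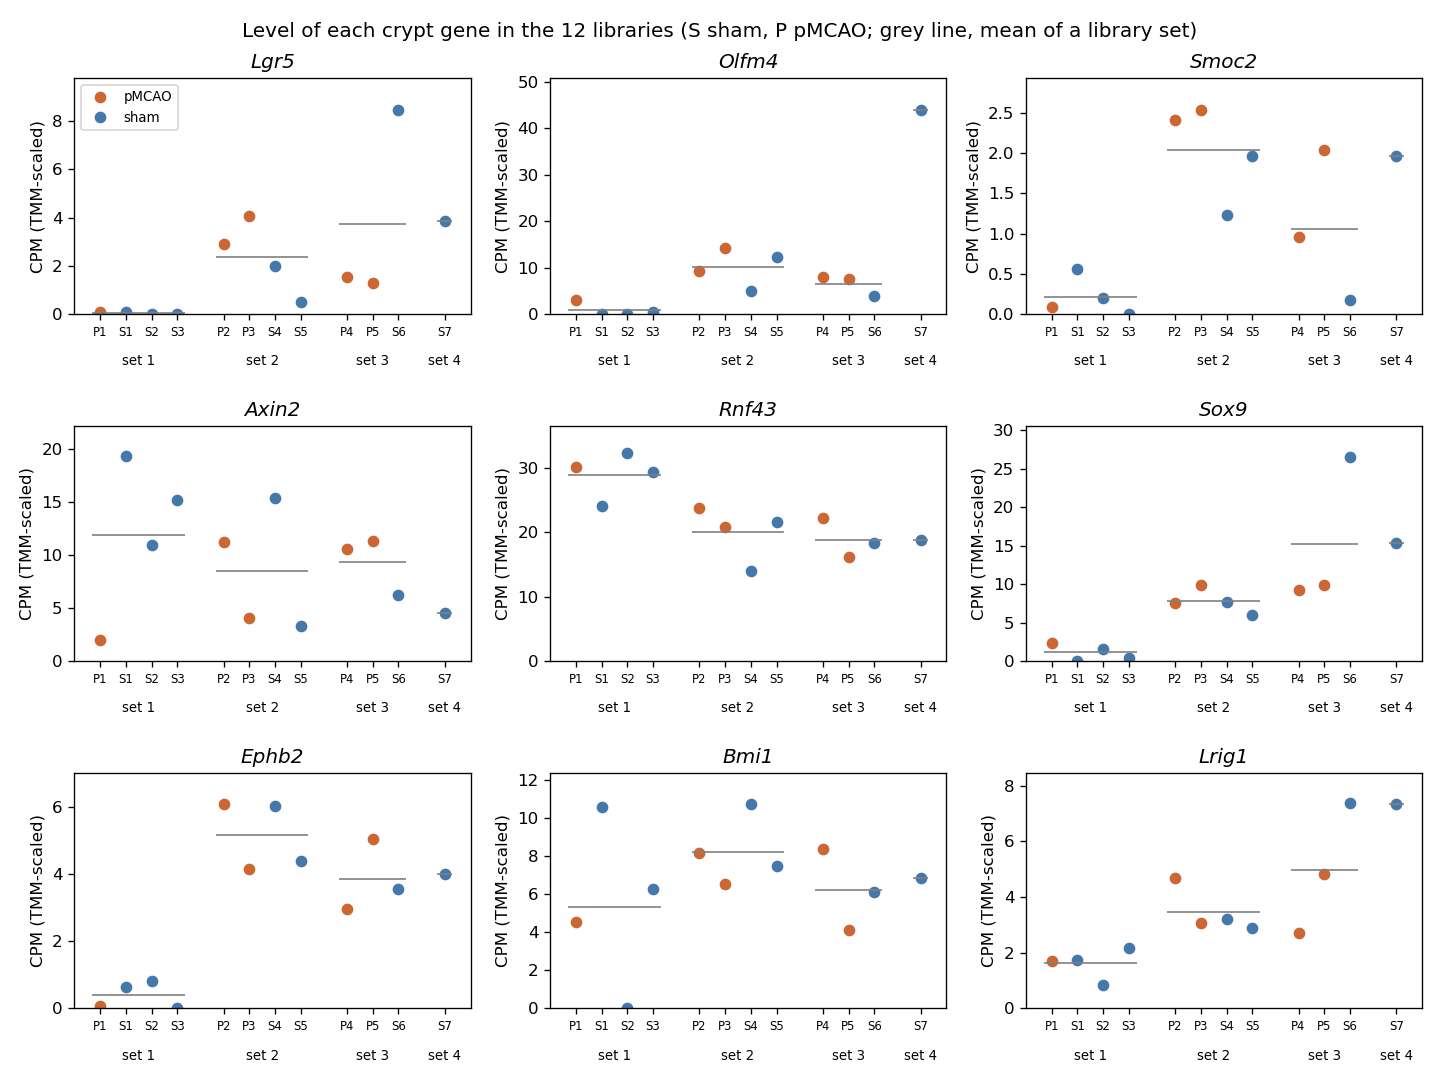
CPM after TMM scaling (linear axis from 0) of the 9 genes in each of the 12 libraries, arranged by library set, with sham (S) in blue and pMCAO (P) in orange and a grey line at the mean of each set. Lgr5, Olfm4, Sox9, Ephb2 and Lrig1 were lower in all 4 libraries of set 1 than in any later library, whereas sham and pMCAO points overlapped for all 9 genes.

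The first question was whether the crypt genes changed 24 h after stroke. None passed the test: in a limma-voom fit with library set as a term, 0 of 9 genes passed both an adjusted p of 0.05 and a difference of 1 log2 unit. Over all 14462 genes tested, 47 passed (0.325%). At an unadjusted p under 0.05 the limma-voom count was also 0 of 9, against 12.7% of all genes, whereas Olfm4 was under 0.05 with edgeR, DESeq2 and limma-trend. After adjustment edgeR called 0 of 9, and DESeq2 called 0 of the 5 genes to which it gave an adjusted p (not Lgr5, Smoc2, Ephb2 or Lrig1). The fitted difference was above 0 for 4 genes and below 0 for 5 (51.3% and 48.7% of all genes), with a median of -0.04 on the log2 scale against 0.01 for all genes. For none of the 9 did all pMCAO samples lie above all sham samples (0.311% of all genes) or below them (0.194%). Sham replicate 7 is alone in its set and so adds nothing to this difference. In sorted bulk cells, fewer cells of a type and less RNA per cell cannot be told apart.

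Lgr5, the R-spondin receptor that marks the cycling stem cells of the crypt base, pointed opposite ways in sets 2 and 3. In set 1 it had 1 count in pMCAO replicate 1 and 1, 0 and 0 counts in sham replicates 1 to 3, all at or under the floor of 3 counts. In set 2 its level was 2.92 and 4.08 CPM in the pMCAO samples and 1.97 and 0.520 CPM in the sham samples. In set 3 it was 1.52 and 1.28 CPM after pMCAO and 8.45 CPM in sham replicate 6, and sham replicate 7 had 3.86 CPM. Both pMCAO samples were thus above both sham samples in set 2, and both were below the single sham sample in set 3. The difference of mean log2 CPM (prior count 2) was 1.65 in set 2 and -2.51 in set 3. The fit across sets gave -0.47 ± 0.71 (SE; 95% interval -1.97 to 1.04; limma-voom adjusted p = 0.831). Without sham replicate 6 the fitted value was 1.73 (unadjusted p = 0.0258, adjusted p = 0.386 by limma-voom). A test of whether the pMCAO effect differed between sets 1 to 3 gave an unadjusted p = 0.101 for Lgr5 (limma-voom adjusted p = 0.692), and with edgeR an unadjusted p = 0.0343 (adjusted p = 0.670). Without set 1, where Lgr5 was at the floor, the pMCAO effect in set 3 minus that in set 2 was -4.64 on the log2 scale (limma-voom unadjusted p = 0.00162, adjusted p = 0.381).

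Olfm4, a secreted glycoprotein of crypt base stem cells, had 3.07 CPM in pMCAO replicate 1 and 0.0796, 0 and 0.482 CPM in the sham samples of set 1. In set 2 it had 9.39 and 14.3 CPM after pMCAO against 4.94 and 12.4 CPM in sham, and in set 3 it had 8.08 and 7.58 CPM against 3.89 CPM. The highest level, 43.9 CPM, was in sham replicate 7. The pMCAO mean was higher in each of the 3 sets that held both groups, by 3.85, 0.56 and 0.99 on the log2 scale, with overlap of single samples in set 2. Among the 9 genes, this held for Olfm4 and Rnf43, and it held for 16.9% of all genes tested. The reverse, a lower pMCAO mean in each set, held for 0 of the 9 and for 13.2% of all genes. The set 1 value rested on 36 counts in the pMCAO sample and 3 counts over the 3 sham samples. The fitted log2 difference was 0.79 ± 0.41 (SE; 95% interval -0.08 to 1.66; limma-voom unadjusted p = 0.0733, adjusted p = 0.443). It was 1.36 with edgeR (unadjusted p = 0.0151, adjusted p = 0.386), 1.51 with DESeq2 (unadjusted p = 0.00346, adjusted p = 0.0950) and 1.70 with limma-trend (unadjusted p = 0.0153, adjusted p = 0.386). Without sham replicate 5 the limma-voom value was 1.37 (unadjusted p = 0.0185, adjusted p = 0.310).

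Smoc2, a matricellular protein also enriched in these stem cells, was low throughout. It had 0.0854 CPM after pMCAO and 0.557, 0.207 and 0 CPM in sham in set 1. In set 2 it had 2.41 and 2.53 CPM against 1.23 and 1.96 CPM, and in set 3 it had 0.959 and 2.04 CPM against 0.179 CPM, the last from 7 counts. Both pMCAO samples were above every sham sample in sets 2 and 3 but not in set 1. Lgr5 and Smoc2 were the only genes of the 9 with both pMCAO samples above both sham samples in set 2, a pattern of 19.3% of all genes. The fitted log2 difference of Smoc2 was 1.01 ± 0.63 (SE; 95% interval -0.32 to 2.34; limma-voom adjusted p = 0.542). It was 0.35 without sham replicate 6 and 0.60 without pMCAO replicate 5 (limma-voom adjusted p = 0.873 and 0.798).

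Axin2 and Rnf43 are target genes that restrain the pathway, the first as a scaffold of the destruction complex and the second as a ligase that removes Wnt receptors. Axin2 had 1.96 CPM in pMCAO replicate 1, against 19.3, 10.98 and 15.2 CPM in the sham samples of set 1. In set 2 it had 11.2 and 4.08 CPM after pMCAO and 15.4 and 3.35 CPM in sham, and in set 3 it had 10.6 and 11.4 CPM against 6.25 CPM. The pMCAO sample was therefore the lowest in set 1, the groups overlapped in set 2, and both pMCAO samples were higher in set 3. The fitted log2 difference was -0.04 ± 0.50 (SE; 95% interval -1.09 to 1.01), and without set 1 it was 0.56 (limma-voom adjusted p = 0.746). Rnf43 was the steadiest of the 9 genes, between 14.1 and 32.3 CPM in all 12 libraries, with a mean of 22.7 ± 6.44 CPM in sham (SD, n = 7) and 22.6 ± 5.06 CPM in pMCAO (SD, n = 5). Its groups overlapped in every set, and the fitted log2 difference was 0.14 ± 0.19 (SE; 95% interval -0.26 to 0.54).

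Sox9, a transcription factor of crypt stem and progenitor cells, and Ephb2, a receptor that helps to place cells along the crypt, were both at low levels in set 1. Sox9 had 2.39 CPM after pMCAO and 0.0796, 1.66 and 0.482 CPM in sham there. In set 2 it had 7.61 and 9.89 CPM against 7.65 and 6.01 CPM, whereas in set 3 the 9.19 and 9.88 CPM of the pMCAO samples were below the 26.5 CPM of sham replicate 6. Like Lgr5, Sox9 was highest in sham replicate 6, and its within-set differences were 2.13, 0.35 and -1.47 on the log2 scale. Of the 9 genes, Sox9 had the smallest p in the test of a difference between sets (limma-voom unadjusted p = 0.0238, adjusted p = 0.599), a test in which 0 of the 9 and 5 of 14277 genes (0.035%) passed after adjustment and 7.63% had an unadjusted p under 0.05. Without set 1, the pMCAO effect on Sox9 in set 3 minus that in set 2 was -1.865 on the log2 scale. The fitted difference of Sox9 was -0.54 ± 0.39 (SE; 95% interval -1.37 to 0.28), and without sham replicate 6 it was 0.64. Ephb2 had 6.10 and 4.17 CPM after pMCAO against 6.05 and 4.39 CPM in sham in set 2. In set 3 it had 2.96 and 5.05 CPM against 3.56 CPM. The groups overlapped in every set, and the fitted difference was 0.06 ± 0.36 (SE; 95% interval -0.70 to 0.81).

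Bmi1, a Polycomb protein, and Lrig1, an inhibitor of growth factor receptors, have been used to mark slowly dividing or reserve stem cells. Bmi1 had 4.53 CPM after pMCAO and 10.6, 0 and 6.27 CPM in sham in set 1. In the later sets it lay between 4.11 and 8.40 CPM after pMCAO and between 6.14 and 10.7 CPM in sham. Sham replicate 2 stood out with 0 counts. The mean difference in set 1 was 1.28 on the log2 scale, although the mean level was lower after pMCAO (4.53 against 5.62 CPM), because the log scale weights that single 0. The fitted difference of Bmi1 was -0.14 ± 0.47 (SE; 95% interval -1.12 to 0.85). Lrig1 had 1.71 CPM after pMCAO and 1.75, 0.829 and 2.17 CPM in sham in set 1, and 4.67 and 3.06 CPM against 3.21 and 2.89 CPM in set 2. In set 3 it had 2.72 and 4.82 CPM, both below the 7.37 CPM of sham replicate 6. The fitted difference of Lrig1 was -0.29 ± 0.38 (SE; 95% interval -1.08 to 0.51).

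**Figure D2:**
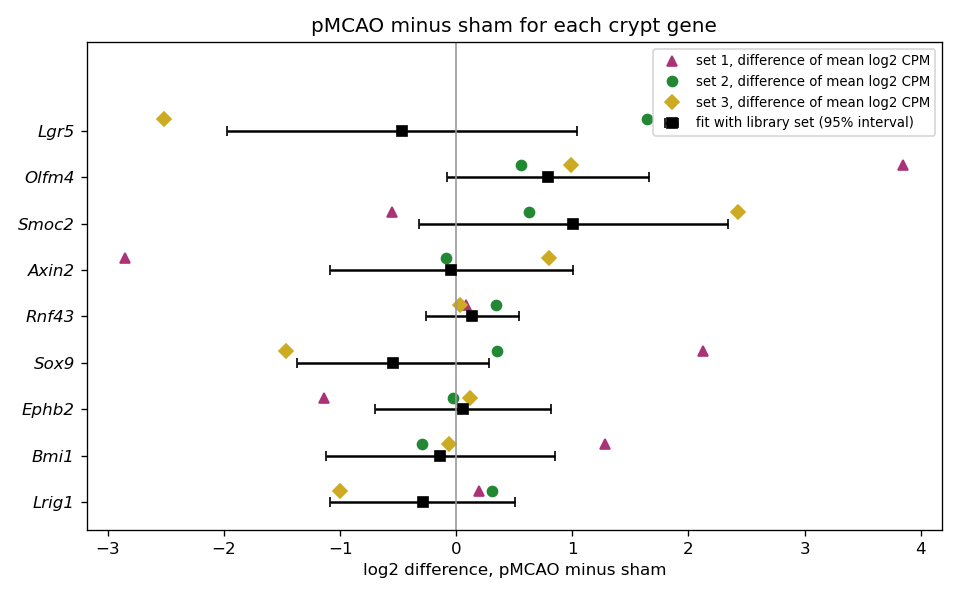
Log2 difference of pMCAO minus sham for the 9 genes, as the limma-voom fit with library set (black squares, 95% intervals) and as the difference of mean log2 CPM within set 1 (triangles), set 2 (circles) and set 3 (diamonds); Lgr5 has no set 1 point, since both groups were at the floor. All 9 intervals crossed 0, and for 6 of the 8 genes with a set 1 point that point lay outside the interval.

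The intervals bound what these samples could show. They were narrowest for Rnf43 and widest for Lgr5, whose interval ran from -1.97 to 1.04, so a fall or a rise of 1 log2 unit in Lgr5 was not detectable as a difference from 0. Total counts were higher in the pMCAO group (22183984 against 13442588 on average, exact permutation test, p = 0.0934), and mitochondrial rRNA was 24.5% ± 8.47 of its counts (SD, n = 5) against 35.6% ± 13.5 in sham (SD, n = 7; exact permutation test, p = 0.136).

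The second comparison set library set 1 against the 8 later libraries, with group as a term, because the crypt genes were read within sets. It compares libraries and not the study's groups. Lgr5, Sox9 and Ephb2 were lower in set 1, and 3 of 9 genes passed the threshold in that direction, against 8.39% of all genes tested lower and 3.28% higher. Lgr5, Smoc2 and Ephb2 had under 10 counts in every set 1 library, so that they passed the filter on low counts through the later libraries alone, and the count over the genes is a description. The difference was below 0 for 7 genes and above 0 for 2 (56.2% and 43.8% of all genes), and 6 had an unadjusted p under 0.05 (33.5%). The median log2 difference was -2.10 over the 9 genes and -0.15 over all genes. All 4 set 1 libraries lay below all 8 later ones for Lgr5, Olfm4, Sox9, Ephb2 and Lrig1, as for 9.49% of all genes, and above them for Rnf43, as for 5.46%.

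For Lgr5, set 1 held 2 counts in all and the later libraries 763, a ratio of levels per effective library size of 0.0160 (95% exact counting interval 0.00194 to 0.0581). At the mean level of the later libraries, 36.0, 38.6, 14.8 and 12.8 counts would have been due in the 4 set 1 libraries, where 1, 1, 0 and 0 were found. The fitted log2 difference was -4.70 ± 1.38 (SE; limma-voom adjusted p = 0.0244), a value that depends on the prior count at such low counts. Sox9 was 1.15 ± 1.06 CPM in set 1 (SD, n = 4) and 11.5 ± 6.65 CPM later (SD, n = 8), a fitted difference of -4.05 ± 1.08 (limma-voom adjusted p = 0.0149). Ephb2 was 0.388 ± 0.407 CPM in set 1 and 4.53 ± 1.13 CPM later, a fitted difference of -3.72 ± 0.87 (limma-voom adjusted p = 0.00692). These 3 calls depended on single libraries. Lgr5 lost its call without any 1 of the 4 set 1 libraries (limma-voom adjusted p between 0.0733 and 0.123), Sox9 without sham replicate 1 (0.0970) and Ephb2 without pMCAO replicate 1 (0.0743). Among sham samples alone, 3 of set 1 against 4 later, 0 of 9 genes were called, beside 746 of all 13498 genes tested there. The fitted values were -4.84, -5.21 and -3.15 for Lgr5, Sox9 and Ephb2 (limma-voom adjusted p = 0.117, 0.0686 and 0.0736).

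Olfm4 was 0.909 ± 1.46 CPM in set 1 and 13.1 ± 12.9 CPM later, and its fitted difference of -4.07 ± 1.47 did not pass (limma-voom adjusted p = 0.0601). Lrig1, with -1.55 ± 0.62 (adjusted p = 0.0862), and Smoc2, with -2.10 ± 1.20 (adjusted p = 0.230), did not pass in limma-voom either. With edgeR, DESeq2 or limma-trend in place of limma-voom, all 3 passed and 6 of 9 genes were called lower, beside 13.7%, 17.2% and 17.4% of all genes. Pooled counts per effective library size were 9.78 times higher in the later libraries for Olfm4 (95% counting interval 7.13 to 13.8) and 2.85 times higher for Lrig1 (2.17 to 3.82). The Olfm4 ratio rested on pMCAO replicate 1, and without it, from 3 set 1 counts, it was 82.4 (95% counting interval 28.2 to 399.7). Counting intervals cover counting error only, since these reads are not independent molecules.

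Axin2, Rnf43 and Bmi1 were not lower in set 1 by the test. Axin2 was 11.9 ± 7.43 CPM in set 1 and 8.36 ± 4.38 CPM later (SD, n = 4 and 8; fitted difference 0.35 ± 0.60). Rnf43 was 28.96 ± 3.51 CPM in set 1 and 19.5 ± 3.25 CPM later, with a fitted difference of 0.55 ± 0.20 (limma-voom adjusted p = 0.0641), but without TMM factors the fitted values were -0.22 for Rnf43 and -0.49 for Axin2, and the median of all genes moved to -0.945. Bmi1 was 5.34 ± 4.38 CPM in set 1 and 7.30 ± 1.93 CPM later, with a fitted difference of -1.02 ± 0.77 that was 0.02 without sham replicate 2.

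**Figure D3:**
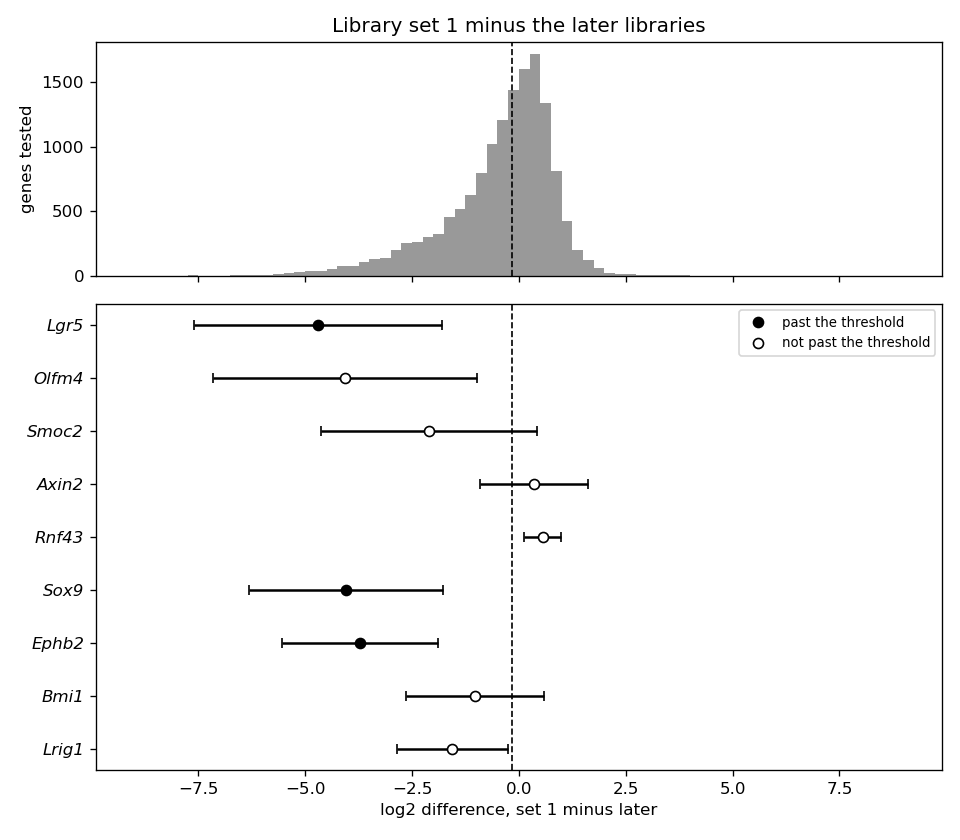
Log2 difference of library set 1 minus the later libraries, as a histogram over the 14462 genes tested (top, dashed line at the median of -0.15) and for each of the 9 genes with its 95% interval (bottom; filled points passed the threshold). Lgr5, Sox9 and Ephb2 are filled and lie at -4.70, -4.05 and -3.72, and Axin2 and Rnf43 lie right of the median.

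Other genes of the pathway were read from fixed lists, and 0 genes of any list were called between pMCAO and sham (0.325% of all genes). Between library sets, where 8.39% of all genes were called lower and 3.28% higher in set 1, 1 of 7 Wnt ligand and secretion genes tested was called, Wnt3, a ligand made by Paneth cells, lower in set 1 (-2.99, limma-voom adjusted p = 0.0465). Wls, which carries Wnt ligands to the cell surface, was at -2.34 (adjusted p = 0.0724). Of that list, Wnt2b, a ligand, and Porcn, the enzyme that acylates Wnt ligands, had the smallest p between pMCAO and sham, with 0.98 and 1.27 (limma-voom adjusted p = 0.548 and 0.557). Of 11 receptor and turnover genes, 1 was called lower in set 1, Znrf3, the partner of Rnf43 in removing receptors, at -4.84 (limma-voom adjusted p = 0.00437). Znrf3 had 0 counts in 3 set 1 libraries and 1 count in sham replicate 3, against 0.905 to 4.88 CPM later, so it passed the filter through the later libraries alone and its value depends on the prior count. Lgr4, the R-spondin receptor found beyond the stem cells, was at -0.97 (adjusted p = 0.0217), short of the fold threshold. Fzd4 and Fzd5 led that list between pMCAO and sham, with 1.41 and 0.25 (limma-voom adjusted p = 0.356 and 0.607).

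Of 18 destruction complex genes tested, 0 were called and 16 were above 0 in set 1 (11.7% and 43.8% of all genes), with a median of 0.43. The sign of differences this small depends on the scaling. Without TMM factors the median of all genes was -0.945, against -0.151 with them, and these genes were not read in that fit. Ctnnb1, the gene of β-catenin, was at 0.63 and Apc at 0.49 (limma-voom adjusted p = 0.0147 and 0.0162), both short of the fold threshold. Between pMCAO and sham Ctnnb1 was at -0.28 and Tnks at 0.52 (limma-voom adjusted p = 0.408 and 0.249). Of 12 TCF factors and co-factors, Tle3, a co-repressor, was called higher in set 1 (1.14, limma-voom adjusted p = 0.000239) and its relative Tle2 lower (-3.58, adjusted p = 0.0204). Tle3 was also at -0.76 between pMCAO and sham (limma-voom adjusted p = 0.0337), short of the fold threshold, and Tle1 was at 0.52 (adjusted p = 0.489). Of 3 Wnt inhibitors tested, Wif1 was called lower in set 1 (-2.81, limma-voom adjusted p = 0.0337), and after pMCAO it was at -1.47 (adjusted p = 0.238). Nkd2 was at 0.92 in set 1 and at -0.49 after pMCAO, passing neither test.

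Among 12 other Wnt targets of the crypt, Prox1 and Nr5a2 were called lower in set 1 and Yap1 higher, with a list median of -1.04. Prox1, a factor of secretory and enteroendocrine cells in this tissue, had 1.05 CPM in set 1 and 18.4 CPM later (log2 difference -5.65, limma-voom adjusted p = 0.00205). Jun, an immediate early gene, was at 0.96 (adjusted p = 0.00549). Between pMCAO and sham, Met was at -0.45 and Myc at 1.31 (limma-voom adjusted p = 0.286 and 0.331). Among 16 other crypt base stem cell genes, 7 were called lower and 2 higher in set 1 (8.39% and 3.28% of all genes), with a median of -2.24. Cdca7 and Msi1, among the 7, had at most 0.207 and 0.964 CPM in set 1. They passed the filter on low counts through the later libraries alone, so the count of calls is a description. Cd24a, a surface protein of secretory and crypt base cells, had 26.8 CPM in set 1 and 489.6 CPM later (log2 difference -4.33, limma-voom adjusted p = 4.62e-05). Clu and Pdgfa were the 2 called higher, at 3.03 and 1.11 (limma-voom adjusted p = 0.00537 and 0.000589). The Clu value rested on pMCAO replicate 1, which had 304 CPM, whereas the sham samples of set 1 had 8.20, 2.28 and 6.03 CPM and the later libraries 0.333 to 44.4 CPM. Without that library Clu was at 1.18 (limma-voom adjusted p = 0.670). Clu, a chaperone that marks revival stem cells, was at 3.74 after pMCAO (limma-voom adjusted p = 0.0597), and Pdgfa was at -0.62 (adjusted p = 0.0899). In set 2 the groups overlapped for Clu, with 15.4 and 23.2 CPM after pMCAO against 4.32 and 36.8 CPM in sham. In set 3 Clu had 21.7 and 44.4 CPM after pMCAO against 0.333 CPM in sham replicate 6, from 13 counts. Of 18 proliferation genes 1 was called, Plk1, a mitotic kinase, at -3.66 in set 1 (limma-voom adjusted p = 0.00576), and Birc5 was at -2.79 (adjusted p = 0.0574). Mcm2 and Ccna2 had the smallest p after pMCAO in that list, with 2.27 and 1.16 (limma-voom adjusted p = 0.12 and 0.349).

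Of the 12 pathway, stem cell and proliferation genes named above as called between library sets, 5 (Tle3, Prox1, Cd24a, Pdgfa and Plk1) stayed called without any single library. Without pMCAO replicate 1, the calls of Wnt3 (-1.91, limma-voom adjusted p = 0.363), Znrf3 (-4.57, 0.0553), Tle2 (-3.07, 0.157), Wif1 (-2.23, 0.163) and Nr5a2 (-2.34, 0.145) were lost, beside that of Clu. Without sham replicate 1, Yap1 was at 0.93, short of the fold threshold. Wnt3, Tle2, Wif1, Nr5a2 and Yap1 lost their calls without other single libraries as well. Calls in the higher direction depended on the scaling. Without TMM factors, 30 of all genes were called higher in set 1, against 474 with them. Tle3, Pdgfa and Yap1 were not read in that fit.

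Markers of some other epithelial cells moved with the crypt genes between library sets. Of the genes tested, 9 of 9 goblet cell, 10 of 10 enteroendocrine and 6 of 6 tuft cell markers were called lower in set 1, with median log2 differences of -2.43, -3.94 and -4.71 (8.39% of all genes were called lower, with a median of -0.15). The enteroendocrine marker Gcg had 0 CPM and the tuft marker Gfi1b at most 0.241 CPM in set 1. Both passed the filter on low counts through the later libraries alone, so these counts of calls are a description. The summed goblet markers ranged from 4134 to 8125 CPM in set 1 and from 20602 to 55241 CPM later, without overlap. The summed enteroendocrine markers ranged from 199 to 406.5 CPM and from 1776 to 3754 CPM, with Gcg at 0 in all set 1 libraries, and the tuft markers from 17.8 to 56.9 CPM and from 219 to 979 CPM, with Il25 at 0 in set 1. Of 6 Paneth cell markers 1 was called lower, and 6 were below 0 (56.2% of all genes), with a median of -2.18. Of 12 enterocyte markers, 4 were called higher and 1 lower in set 1 (3.28% and 8.39% of all genes). Of these 12, 7 were above 0 and 5 below (43.8% and 56.2% of all genes), and their sums overlapped between set 1 and the later libraries. Immune markers summed to between 53.0 and 141 CPM in set 1 and between 108 and 631 CPM later, with 1 of 10 called lower. The part of these cell types, of mitochondrial rRNA and of the number of genes detected in the levels of the crypt genes was not tested. Between pMCAO and sham, 0 markers of any of these lists were called (0.325% of all genes). Of 9 goblet markers 8 were above 0 and 5 had an unadjusted p under 0.05, and of 12 enterocyte markers 11 were above 0 and 5 had such a p (51.3% and 12.7% of all genes).

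**Figure D4:**
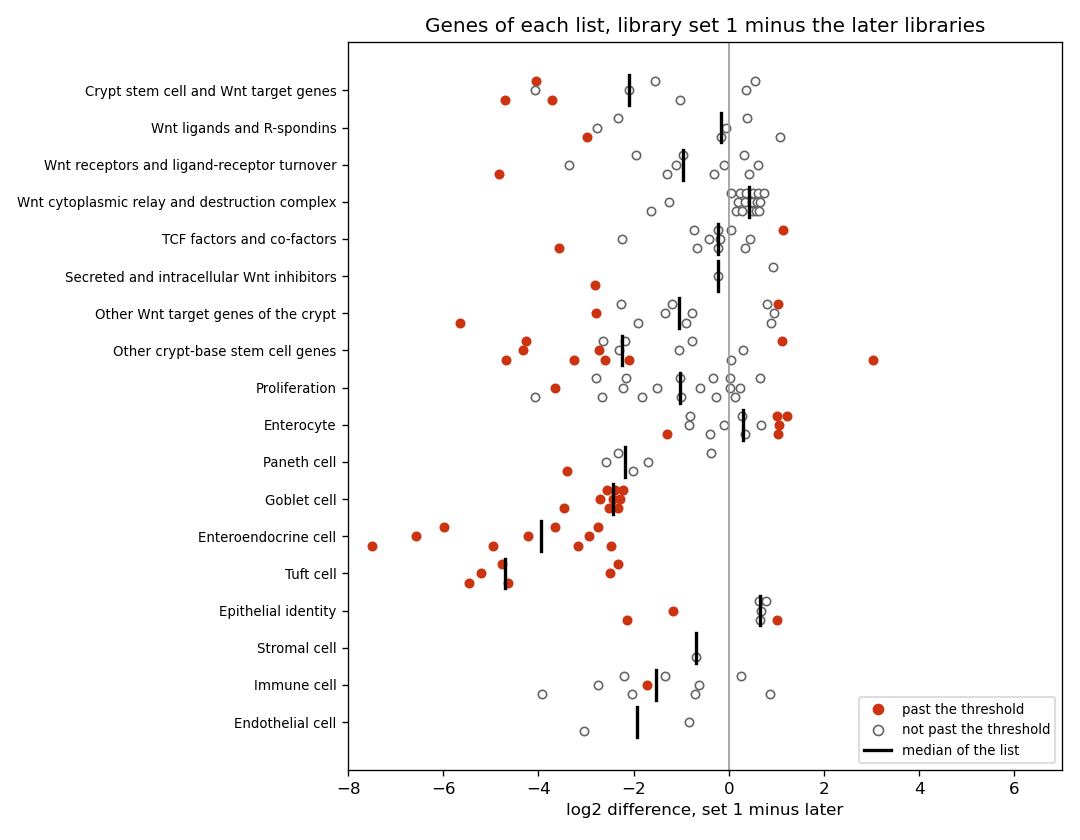
Log2 difference of library set 1 minus the later libraries for each gene tested in 18 lists (points, filled red past the threshold; black bars, list medians). Goblet, enteroendocrine and tuft cell markers lay left of 0 in full, and the 9 crypt genes had a median of -2.10. With TMM scaling, on which the sign of small differences depends, 16 of 18 destruction complex genes lay right of 0.

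The mean of the 9 genes' centred log2 CPM was between -2.05 and -1.24 in set 1 and between 0.402 and 1.19 in the later libraries. Over the 12 libraries, the genes most like this mean were Tmed10, Plk1, Cacna1a, Ccnd2 and Gm37859, with Pearson r between 0.976 and 0.982. The libraries fell into these separate clusters, so this likeness describes the gap between the sets. After library set and group means were removed, the most alike included Mxd3, Kdm2b, Amacr and Ndel1, with r between 0.952 and 0.971. Sham replicate 7, alone in its set, adds nothing to this second r. On both measures the values are the highest over all other genes tested, so they are a description. No gene was among the highest 5 on both measures.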

How the data were processed

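RNA from sorted EpCAM+ small intestinal epithelial cells of 7 sham-operated and 5 pMCAO mice was analysed from a single deposited table of 15855 genes. The study describes a larger pMCAO group, of which these samples were analysed here. The authors depleted ribosomal RNA by cleavage, sequenced both ends, mapped the reads to GRCm38 (STAR) and counted them per gene (featureCounts). The deposited count columns held unnormalised whole counts per gene. The deposited CPM columns equalled those counts rescaled to a common total in 190260 of 190260 values (within 0.0006 CPM) and were not used further. The deposited log2 columns held the authors' group comparison and average expression, and the deposited p-value columns held their limma test after correction for the day of tissue collection; none of their values is given here, but the set boundaries below came from an earlier match to that fit. A filter on low values preceded deposit, since no gene had fewer than 4 samples at 0.5 CPM or more.

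Genes were kept with edgeR's filterByExpr by group (minimum count 10), which left 14462 and removed 1393. After TMM scaling, group and library set were fitted in limma-voom (R 4.3.3 with edgeR 4.0.16 and limma 3.58.1). Calls needed a p, adjusted over all genes tested by Benjamini and Hochberg, no higher than 0.05 and a log2 difference of 1 or more in size. Library set 1 against later libraries was fitted with group as a term, and the group by set interaction was fitted on the 11 samples of sets 1 to 3 (14277 genes). Intervals of 95% came from the moderated fit. Within sets, mean log2 CPM (prior count 2) was compared without a test. Fits were tested on simulated data with known changes. The labels give no day of collection. The sets are runs of library numbers whose boundaries had been found earlier by matching the authors' deposited fit, and p-values measure the spread between these samples.

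The genes, lists and sets were chosen with earlier results of these data known. Beside the crypt genes, the rule named the 2 genes of each pathway, stem cell and proliferation list with the smallest unadjusted p in each comparison, and the 5 genes most like the crypt genes' mean on each measure. The result of 1 gene so named is not reported here. Nr5a2, Yap1, Gcg, Il25, Gfi1b, Cdca7 and Msi1 were named after their values were seen. Total counts were 7418730 to 31925579 per sample, and 3 counts, the floor, equalled 0.094 to 0.404 CPM. The closest pair of samples differed by a chi-square of 20.1 per degree of freedom, so none was counted as a repeat. Alternatives were limma-trend, DESeq2 (1.42.0), the quasi-likelihood test of edgeR, other normalisations and filters, sample weights, other covariates and leaving out samples. Leaving out samples for listed genes called between sets, and for the pooled Olfm4 counts, was chosen after seeing the data.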

Additional observations from a re-analysis of the deposited data

Results flagged for a closer look

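The 9 crypt genes and 3 library measures were screened in both groups, 24 groups of values in all, for a sample far from the others of its group, and 4 values were far, 1 from sham replicate 2 and 3 from pMCAO replicate 1. Chance alone marks about 1 group in 20. For Bmi1 in the sham group, sham replicate 2 was at -3.30 log2 CPM, from 0 counts, whereas the other 6 sham samples ranged from 2.64 to 3.44. In the pMCAO group, Ephb2 was at -2.42 log2 CPM in pMCAO replicate 1, against 1.61 to 2.63 in the other 4 samples. Sox9 was at 1.32 log2 CPM in the same library, against 2.95 to 3.32 in the other 4. That library also had 14257 genes detected, against 15464 to 15766 in the other 4 pMCAO samples. It is the only pMCAO library of set 1.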

How the results depend on the processing

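Between pMCAO and sham, 0 of 9 crypt genes were called under any alternative run (with DESeq2, 0 of the 5 that it gave an adjusted p), while the number of all genes called, 47, was 21 with edgeR, 97 with DESeq2, 26 with limma-trend, 29 with sample weights, 0 without a library set term (1219 at an unadjusted p under 0.05) and 0 without set 1 (1421), and 4 to 86 when single samples were left out, lowest without sham replicate 6. None of the reversals below passed the adjusted threshold, and their cause was not tested. Sox9 turned to 0.14, 0.19 and 0.40 and Ephb2 to -0.31, -0.28 and -0.33 with edgeR, DESeq2 and limma-trend, Lgr5 to 0.17 and Bmi1 to 0.26 with limma-trend, Bmi1 to 0.048 without TMM factors and Ephb2 to -0.031 with sample weights. Without a library set term, Sox9 was 0.47, Lgr5 0.63 and Bmi1 0.13, and without set 1 Axin2 was 0.56. In set 1 alone, Smoc2 was -0.55, Sox9 2.13, Ephb2 -1.14, Bmi1 1.28 and Lrig1 0.20. In set 2 alone, Lgr5 was 1.65, Sox9 0.35, Ephb2 -0.031 and Lrig1 0.31, and in set 3 alone Axin2 was 0.80. With single samples left out, the fitted values ran from -1.29 to 1.73 for Lgr5, 0.61 to 1.37 for Olfm4, 0.35 to 1.40 for Smoc2, -0.54 to 0.56 for Axin2, -0.90 to 0.64 for Sox9, -0.11 to 0.20 for Ephb2, -0.35 to 0.085 for Bmi1 and -0.50 to 0.28 for Lrig1.

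Replicate numbers did not pair the samples: the correlations of same-numbered deviations were 0.476, -0.232, -0.145, 0.190 and 0.069, and 1 of 5 numbers correlated best with its own. With the replicate number as a block in place of library set, 243 genes and 0 of 9 crypt genes were called, and Lgr5 was 2.02, Sox9 1.30, Lrig1 0.63 and Rnf43 -0.10.

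Between library sets, 1687 of 14462 genes were called. The number was 2382 with edgeR, 2928 with DESeq2, 2978 with limma-trend, 4109 (30 of them higher in set 1) without TMM factors and 746 of 13498 among sham samples. With single samples left out it was 704 to 2205, fewest without pMCAO replicate 1, and 1000 without sham replicate 1. The number of crypt genes called ran from 0 among sham samples to 6, and from 1 to 5 with single samples left out. Without TMM factors Axin2 was -0.49 and Rnf43 -0.22. With single samples left out, Axin2 ran from -0.39 to 1.48 and Bmi1 from -1.77 to 0.017. For the difference of the pMCAO effect between sets, 5 genes passed with limma-voom, and 0 with edgeR (1022 at an unadjusted p under 0.05) or without set 1 (1141).

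With single samples left out, total counts were 6305998 to 11531918 higher after pMCAO, past the threshold without pMCAO replicate 4 or sham replicate 6 (exact permutation test, p = 0.0364 and 0.0303), and the mitochondrial rRNA share was -14.6 to -7.93 percentage points, past it without sham replicate 6 (p = 0.0433, exact permutation test). Lgr5, Smoc2, Olfm4, Sox9 and Ephb2 had under 10 counts each in most set 1 libraries, so within-set differences there rest on few reads. With 1 pMCAO sample in set 1 and 1 sham sample in set 3, those sets have no replicate in that group. Normalisation by median of ratios, leaving out mitochondrial rRNA and dropping the filter on low counts changed no crypt gene's direction or call.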
